A study of Mus musculus with 2 samples.

Results

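The genes described here build the machinery by which a muscle cell turns an electrical signal into a release of calcium. They are 10 genes: the voltage sensor genes Cacna1s and Cacnb1 and their adaptor gene Stac3, the calcium release channel genes Ryr1 and Ryr3, the junctophilin genes Jph1 and Jph2, the calsequestrin gene Casq1, and the calcium pump genes Atp2a1 and Atp2a2. Members were chosen by name. The Entrez gene IDs of the 10 symbols matched 19 of the 36780 transcript rows of the deposited table, the rows of a gene were summed, and 10 of 24532 gene IDs are thus members. RNA came from muscle stem cells of male C57BL/6 mice, sorted straight from digested limb muscle as Vcam1-positive cells without CD31, CD45 or Sca1. There was 1 library of wild-type (WT) cells and 1 of double-knockout (dKO) cells. The dKO genotype combined homozygous loss of Esr2, the estrogen receptor beta gene, with Pax7-CreER, a Cre that tamoxifen activates in cells expressing Pax7, and with a floxed gene that is not reported here. The labels give both groups the same treatment text, tamoxifen by mouth at 20 mg/mL for 5 days from 3 months of age. They also mark both as 6M without explaining it, and they do not say how many mice gave cells to a library.

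In a muscle fibre, depolarisation of the T-tubule membrane moves the voltage sensor Cav1.1, which is coupled through STAC3 to the ryanodine receptor RYR1 in the facing membrane of the sarcoplasmic reticulum. Calcium then leaves the reticulum, where calsequestrin had bound it, and SERCA pumps carry it back. Junctophilins hold the membranes together. A satellite cell has no such triads, so in these cells the genes are known mainly from their later use in fibres, while the pump SERCA2 and low levels of several channels occur in many cell types.

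The promoter windows of the members on which the comparison turns are shown first, with their E-boxes, the sites that the myogenic factor MYOD1 binds. Myod1 was 3.13-fold higher in the dKO library (counting interval 3.03 to 3.23). Whether MYOD1 binds or regulates any member in these cells was not tested. RefSeq windows on GRCm38.p6, from 250 bases before to 50 bases after a start site, were given for 6 of the 10 members, in 8 windows. Ryr1 (chr7:29125102-29125401, minus strand) was the member with the largest ratio of dKO to WT, and Cacna1s (chr1:136052561-136052860, plus strand) the one with the smallest. Casq1 (chr1:172219846-172220145, minus strand) and Atp2a1 (chr7:126463024-126463323, minus strand) were nearly equal in the libraries, and Jph2 (chr2:163397924-163398223, minus strand) is the member whose rows moved apart. Capitals mark each match to the E-box CANNTG on either strand.
Ryr1: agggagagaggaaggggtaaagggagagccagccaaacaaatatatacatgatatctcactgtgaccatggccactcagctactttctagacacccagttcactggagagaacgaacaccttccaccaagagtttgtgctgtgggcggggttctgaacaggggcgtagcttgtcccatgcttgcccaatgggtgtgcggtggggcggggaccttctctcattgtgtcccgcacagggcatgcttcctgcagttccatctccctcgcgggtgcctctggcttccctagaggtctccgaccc
Cacna1s: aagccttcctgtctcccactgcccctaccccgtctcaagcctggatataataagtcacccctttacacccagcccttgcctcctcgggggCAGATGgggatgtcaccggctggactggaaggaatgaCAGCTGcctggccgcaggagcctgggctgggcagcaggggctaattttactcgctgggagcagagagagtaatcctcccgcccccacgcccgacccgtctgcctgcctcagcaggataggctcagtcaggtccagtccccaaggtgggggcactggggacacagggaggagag
Casq1: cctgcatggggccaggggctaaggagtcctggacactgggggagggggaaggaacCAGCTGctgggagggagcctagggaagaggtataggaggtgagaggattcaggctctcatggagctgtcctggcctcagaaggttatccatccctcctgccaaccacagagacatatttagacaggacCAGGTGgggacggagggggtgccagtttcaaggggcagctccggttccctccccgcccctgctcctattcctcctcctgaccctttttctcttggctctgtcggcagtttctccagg
Atp2a1: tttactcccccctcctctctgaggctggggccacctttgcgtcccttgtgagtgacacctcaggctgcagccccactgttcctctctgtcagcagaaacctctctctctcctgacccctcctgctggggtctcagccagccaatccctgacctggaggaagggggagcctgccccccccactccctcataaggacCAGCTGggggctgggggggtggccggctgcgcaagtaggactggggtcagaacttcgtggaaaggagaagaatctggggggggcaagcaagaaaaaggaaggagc
Jph2: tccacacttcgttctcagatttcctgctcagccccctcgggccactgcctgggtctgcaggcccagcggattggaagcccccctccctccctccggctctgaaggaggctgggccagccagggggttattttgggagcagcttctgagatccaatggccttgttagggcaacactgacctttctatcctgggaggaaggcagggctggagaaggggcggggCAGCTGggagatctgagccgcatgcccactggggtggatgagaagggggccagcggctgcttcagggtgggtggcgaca

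The core E-box CAGCTG reads the same on both strands and is one form of CANNTG. It occurred in windows of 4 of these 6 members, or in 5 of the 8 windows. Its first base lay 123 bases before the start site in Cacna1s, 195 in Casq1, 55 in Atp2a1 and 29 in the Jph2 window shown. Over all 32851 windows of the same length, 16.3% held CAGCTG. The windows of Jph2 overlap each other, and those of Cacnb1, which are not printed, held 0 matches to CAGCTG. The wider form CANNTG was found in 5 of the 6 members, or 6 of the 8 windows, and in 72.3% of all windows. It is thus common in any window of this length. The Ryr1 window held 0 matches to CANNTG. The MEF2 motif, searched on both strands as well, had 0 matches in the 8 member windows and occurred in 3.19% of all windows. A match is only a description of these letters, and members with CAGCTG included genes that were lower and genes that were level in the dKO library. Ryr3, Atp2a2, Stac3 and Jph1 had no window, so Ryr1 was the only higher member searched. The directions seen among members with a match thus depend on which windows were given.

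The WT library held 36636680 reads and the dKO library 43699831. With 1 library for each genotype there is no replicate check and no test. Every difference compares these 2 libraries, and all intervals are 95% intervals that cover counting error only. They are exact, except that the share of a gene among the reads of its family has a Wilson interval. Levels are given as CPM, reads per mega-read of a library size scaled by the trimmed mean of M values (TMM), and a log2 ratio is that of dKO CPM + 1 over WT CPM + 1. A gene was taken as measured where either library held 10 or more reads of it (14885 genes), and it counts as 2-fold apart where its log2 ratio reached 1 or −1. All 12 stem cell markers were present in both libraries, at 190 to 2980 CPM in WT and 208 to 4872 CPM in dKO.

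The ryanodine receptor genes Ryr1 and Ryr3 and the SERCA2 gene Atp2a2 were higher in the dKO library. The voltage sensor genes Cacna1s and Cacnb1 and the junctophilin gene Jph2 were lower, and Stac3, Jph1, Casq1 and Atp2a1 were level, meaning that the counting interval of their ratio included 1. Of the 10 measured members, 1 was at least 2-fold higher, against 1.92% of all measured genes, and 0 were 2-fold lower, against 4.3%. In both directions together this is 1 of 10 members and 6.22% of measured genes. The member past 2-fold was Ryr1. The counting interval of the ratio lay above 1 for 3 members (Ryr1, Ryr3 and Atp2a2), below 1 for 3 (Cacna1s, Cacnb1 and Jph2) and included 1 for 4 (Stac3, Jph1, Casq1 and Atp2a1). With library totals in place of TMM the intervals of these 4 also lay below 1, so that 7 members were below and 0 included 1. The word level thus refers to the TMM scale, where the lower limit of Jph1 was 0.997, and does not hold with library totals. Intervals were not computed with other scalings. Over all measured genes the TMM shares were 34.9%, 37.8% and 27.3%, so an interval away from 1 is the common case at this depth. The median log2 ratio of the members was −0.0031, from −0.75 to 1.31, beside −0.02 for all measured genes. In bulk RNA of sorted cells, fewer cells of a kind and less RNA per cell cannot be told apart.

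**Figure D1:**
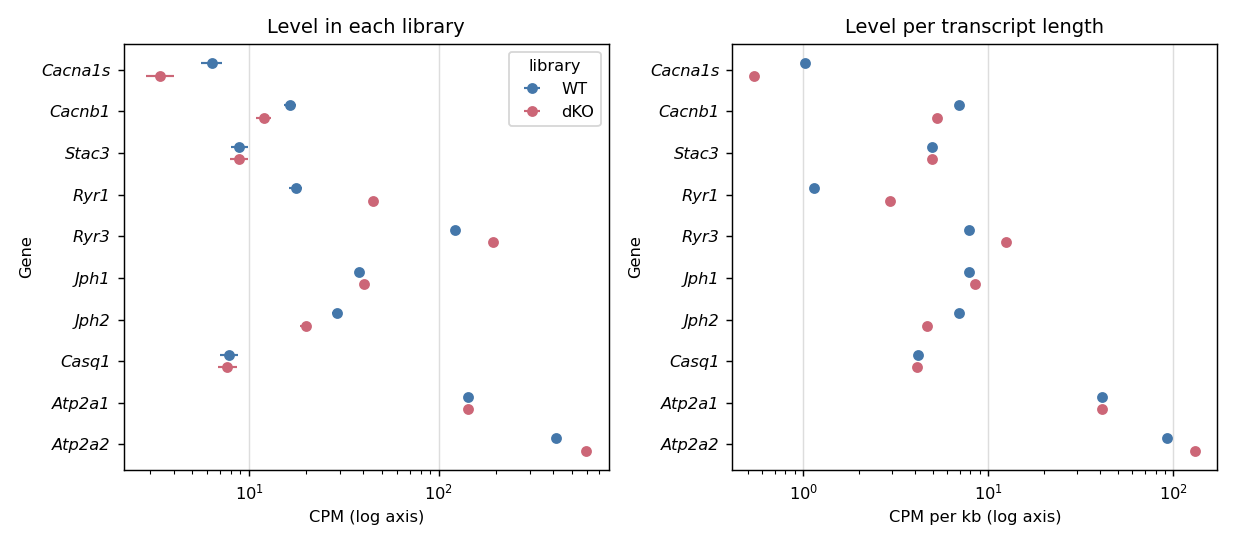
Levels of the 10 genes in the WT and dKO libraries, as CPM with 95% Poisson intervals (left) and as CPM per kb of transcript without intervals (right), both on log axes. Ryr1 went from 17.6 to 45.1 CPM, while Atp2a1 stood at 142 CPM in both libraries.

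Cacna1s encodes the pore and voltage sensor of Cav1.1 (Entrez ID 12292, chromosome 1, 136052806 to 136119822, coordinates on GRCm38 here and for the other members, all protein-coding). It had 255 reads in WT and 136 in dKO, or 6.37 and 3.40 CPM. That is 1.88-fold lower in dKO (1.52 to 2.33), with a log2 ratio of −0.75. This was −0.44 with a pseudocount of 5 CPM and −0.36 with a trend on abundance and transcript length removed. The pseudocount of 1 CPM shrinks this log2 ratio, since the gene had the fewest reads of the members in both libraries. Its reads sat in 2 rows that did not move alike. The row of 6251 bases had 197 and 134 reads, 1.47-fold lower (1.17 to 1.85), and the row of 6188 bases had 58 and 2, which puts dKO over WT at 0.0345 (0.00408 to 0.130). The longer row thus held 77.3% of the gene's WT reads (71.6 to 82.3) and 98.5% of the dKO reads (94.8 to 99.8). By the longer row alone the log2 ratio of the gene was −0.46.

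Cacnb1 encodes the cytoplasmic beta subunit that brings Cav1.1 to the membrane (Entrez ID 12295, chromosome 11, 98001508 to 98023034). It had 658 and 477 reads, or 16.4 and 11.9 CPM, which is 1.38-fold lower in dKO (1.22 to 1.56). Of its 6 rows, that of 3524 bases took most reads, 345 in WT and 217 in dKO. The row of 1600 bases was level, with 58 and 57 reads. The spans of Cacnb1 and of Rpl19, a ribosomal protein gene with 38534 and 59883 reads, overlap on chromosome 11, and without a stated strand setting the reads of that overlap cannot be told apart.

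Stac3, the adaptor that couples Cav1.1 to RYR1 (Entrez ID 237611, chromosome 10, 127501617 to 127508823), was level. It had 356 reads in WT and 354 in dKO, or 8.90 and 8.85 CPM, with a ratio of 0.994 (0.856 to 1.15).

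Ryr1, the skeletal muscle calcium release channel (Entrez ID 20190, chromosome 7, 29003340 to 29125179), had 704 reads in WT and 1803 in dKO in its only row of 15362 bases. It stood at 17.6 CPM in WT (16.3 to 18.9) and 45.1 CPM in dKO (43.0 to 47.2), a 2.56-fold higher level (2.35 to 2.80) and a log2 ratio of 1.31. Of the 14885 measured genes, 97 had a higher log2 ratio. That Ryr1 was higher was known before the members were chosen. The log2 ratio was lowest with library totals in place of TMM (1.06) and highest with a trend on abundance and transcript length removed (1.66). It was past 2-fold in each of the 7 alternatives. Since Ryr1 has 1 row, keeping genes with 1 row could not change its value, and taking the highest row changed only the scaling. Long transcripts were on the whole lower in dKO: among genes with 1 row and at least 100 reads, the log2 ratios of the longest eighth (5764 to 83437 bases) centred on a median of −0.15. Ryr1 and Ryr3 belong to that eighth and were higher.

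Ryr3, the second release channel of developing and some adult muscles (Entrez ID 20192, chromosome 2, 112631354 to 113217405), was the more abundant ryanodine receptor gene in both libraries. It had 4863 reads in WT and 7708 in dKO, or 122 and 193 CPM, which is 1.58-fold higher in dKO (1.53 to 1.64). Per transcript length Ryr3 exceeded Ryr1 by 6.87-fold in WT and by 4.25-fold in dKO. Among the reads of the ryanodine receptor genes, Ryr1 took 12.6% in WT (Wilson interval 11.7 to 13.5) and 19.0% in dKO (18.2 to 19.8). The share of Ryr3 was 86.9% in WT and 81.0% in dKO, smaller in dKO although its level was higher. Such shares do not depend on how the libraries are scaled. Ryr2, the cardiac receptor gene and no member, had 27 reads in WT and 0 in dKO. Against a floor of 3 reads in dKO it was at least 9.0-fold lower, and 0 of 9511 receptor reads allows a share of up to 0.0315%.

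**Figure D2:**
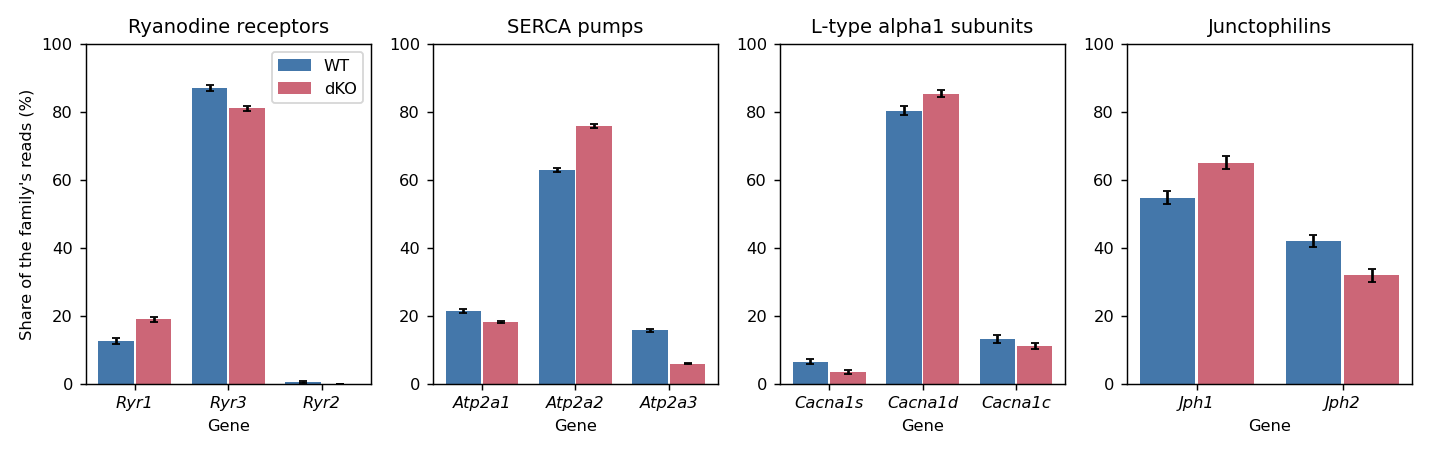
Share of a family's reads (%) taken by each gene in the WT and dKO libraries, with 95% Wilson intervals, for ryanodine receptors, SERCA pumps, L-type alpha1 subunits and junctophilins (the last out of Jph1 to Jph4). Ryr1, Atp2a2, Cacna1d and Jph1 took larger shares in dKO. Ryr3, Ryr2, Atp2a1, Atp2a3, Cacna1s, Cacna1c and Jph2 took smaller ones.

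Jph1, the junctophilin most typical of skeletal muscle triads (Entrez ID 57339, chromosome 1, 16942104 to 17097922), had 1514 and 1621 reads, or 37.8 and 40.5 CPM. The ratio of 1.07 (0.997 to 1.15) included 1. Jph2, the junctophilin shared with the heart (Entrez ID 59091, chromosome 2, 163336242 to 163398049), had 1162 and 794 reads, or 29.0 and 19.8 CPM, 1.46-fold lower in dKO (1.34 to 1.60). Jph1 took 54.8% of junctophilin reads in WT and 65.1% in dKO, and Jph2 took 42.1% and 31.9%. Jph3, a junctophilin gene of neurons, had 0 reads in both libraries.

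The direction of Jph2 rests on the sum of its rows. Its row of 4155 bases had 703 reads in WT against 0 in dKO. With a floor of 3 reads it was at least 234-fold lower, and 0 of the 794 dKO reads allows this row a share of up to 0.378%. Its row of 4235 bases had 459 and 794 reads, 1.73-fold higher in dKO (1.54 to 1.94). Taking the row with the highest mean share in place of the sum turned the log2 ratio from −0.53 to 0.73. Among rows with at least 100 reads in the higher library, 8.36% had 0 reads in the other library in genes with several rows (725 of 8670), and 0.120% in genes with 1 row (9 of 7512). No source used here says how reads were assigned to rows, and its part in the Jph2 rows was not tested.

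**Figure D3:**
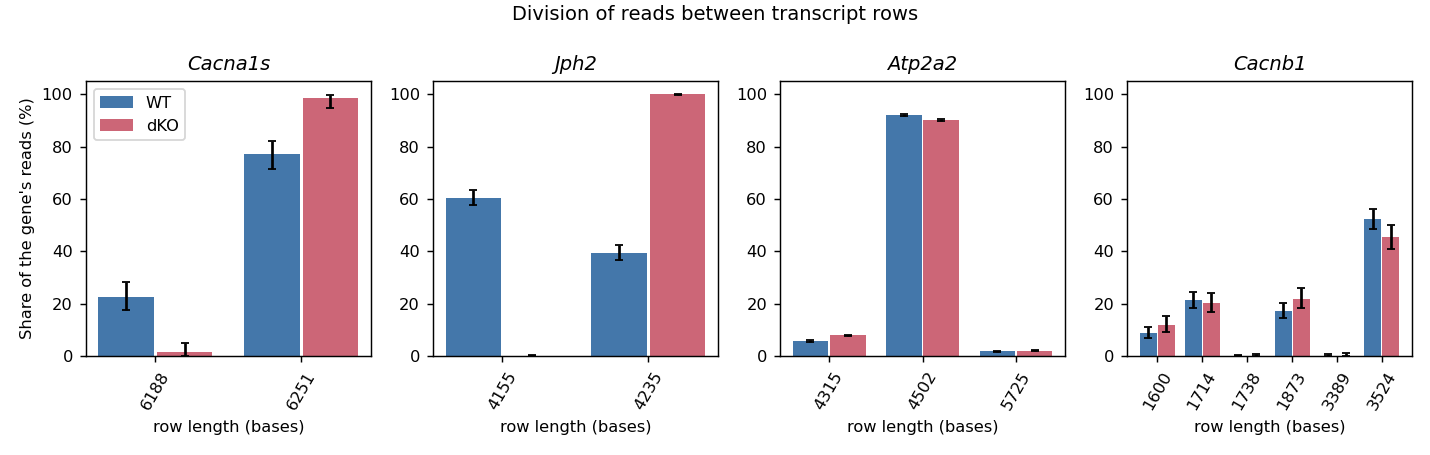
Share of each gene's reads (%) in each of its transcript rows, named by row length in bases, for the 4 members with several rows, in WT and dKO with exact 95% binomial intervals. The 4155-base row of Jph2 goes from 60.5% in WT to 0 in dKO, while the 4502-base row of Atp2a2 holds 92.2% and 90.0%.

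Casq1, the calcium-binding protein of the fast fibre reticulum (Entrez ID 12372, chromosome 1, 172209894 to 172219895), was level. It had 314 reads in WT and 308 in dKO, or 7.85 and 7.70 CPM, with a ratio of 0.981 (0.835 to 1.15). Casq2, the cardiac and slow muscle calsequestrin gene and no member, had 364 and 218 reads and was 1.67-fold lower (1.41 to 1.98). Casq1 thus took 46.3% of calsequestrin reads in WT (42.6 to 50.1) and 58.6% in dKO (54.3 to 62.7).

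Atp2a1 encodes SERCA1, the pump of fast fibres (Entrez ID 11937, chromosome 7, 126445858 to 126463103). It had 5675 reads in WT and 5683 in dKO, 142 CPM in each, and its ratio of 1.001 had an interval of 0.965 to 1.04. With library totals the ratio was 0.840 (0.809 to 0.871). Atp2a2 encodes SERCA2, the pump of slow and cardiac muscle whose other form serves the endoplasmic reticulum of most cells (Entrez ID 11938, chromosome 5, 122453513 to 122502225). It had 16613 and 23701 reads, or 415 and 592 CPM, 1.43-fold higher in dKO (1.40 to 1.45). Its 3 rows were all higher, by 1.39-fold in the row of 4502 bases (15311 and 21332 reads), by 1.90-fold in that of 4315 bases (986 and 1874 reads) and by 1.57-fold in that of 5725 bases (316 and 495 reads). The rows carry no transcript name, so they are not assigned to SERCA2a or SERCA2b. Abundant genes were on the whole higher in dKO. Among genes with 1 row and at least 100 reads, the most abundant eighth had a median log2 ratio of 0.33, beside 0.51 for Atp2a2. With the trend on abundance and length removed Atp2a2 stood at 0.21.

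Atp2a3, the SERCA3 gene of blood and endothelial cells and no member, was 2.25-fold lower in dKO (2.13 to 2.37), with 4175 and 1859 reads. Of SERCA reads, Atp2a2 took 62.8% in WT (62.2 to 63.4) and 75.9% in dKO (75.4 to 76.3). The share of Atp2a1 was 21.4% and 18.2%, and that of Atp2a3 15.8% and 5.95%. The sort left out cells with CD31, CD45 or Sca1. Pecam1, the CD31 gene, had 4745 reads in WT and 1673 in dKO, Ptprc, the CD45 gene, 200 and 17, and Ly6a, the Sca1 gene, 2316 and 386. Markers of endothelial and immune cells were lower in dKO, with summed levels of 647 and 289 CPM over 12 endothelial genes and of 204 and 59.1 CPM over 13 immune genes, and none of either list at 0. Their part in the Atp2a3 difference was not tested.

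Per kilobase of transcript the 10 genes lay far apart, with Cacna1s above 21.2% of measured genes in WT and 17.5% in dKO. Atp2a2 was highest in both libraries, at 92.1 CPM per kb in WT and 131 in dKO, above 95.8% and 96.2% of measured genes. Atp2a1 followed at 41.2 and 41.3. Jph1 and Ryr3 (both 7.87 in WT) had overlapping counting intervals there, as did Jph2 and Cacnb1 (6.94 and 6.92), Stac3 and Casq1 (4.97 and 4.19), and Ryr1 and Cacna1s (1.15 and 1.02) at the low end. In dKO, Ryr3 (12.5) stood above Jph1 (8.43), the intervals of neighbours overlapped from Cacnb1 (5.25) through Stac3 (4.94) and Jph2 (4.68) to Casq1 (4.11), and Ryr1 (2.93) and Cacna1s (0.544) were apart. Ryr1 was thus 1.12 times as abundant per length as Cacna1s in WT and 5.39 times in dKO. By reads, without regard to length, Cacna1d, the gene of Cav1.3, took 80.4% of the reads of Cacna1s, Cacna1c and Cacna1d in WT and 85.4% in dKO, and Cacna1s took 6.48% (5.76 to 7.30) and 3.46% (2.93 to 4.08).

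The wider pathway was read from 76 other genes in 6 lists by role, 73 of them measured. Of these, 1 was at least 2-fold higher and 3 were 2-fold lower, beside 1.92% and 4.3% of all measured genes, so the counts are near the background. There were 27 above and 46 below 0, with a median log2 ratio of −0.14, which was −0.05 with the trend on abundance and length removed. Among genes with 1 row and at least 100 reads in the higher library, the scarcer were on the whole lower in dKO. The least abundant eighth of these genes had a median of −0.27. Over all measured genes 47.6% were above and 52.4% below 0. The genes 2-fold apart were Homer1, Atp2a3, Slc8a1 and Dysf.

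Partners of the release channel had a median log2 ratio of −0.03, with 1 of 15 genes 2-fold higher, 0 lower and 8 below 0. Homer1, a scaffold that binds ryanodine and IP3 receptors, was 2.40-fold higher in dKO (2.30 to 2.51), with 2929 and 7038 reads. The other genes of the voltage sensor and the excitable membrane had 0 of 12 measured genes past 2-fold in either direction, with 9 of 12 below 0 and a median of −0.26, which turned to 0.15 with the trend on abundance and length removed. Among them Cacna1d and Cacna2d1, the gene of the alpha2-delta subunit, were the most abundant and were close to level by the sum of rows (0.08 and 0.04). The highest row of Cacna2d1 alone gave a log2 ratio of 1.52.

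Pump regulators and other calcium exporters had 4 of 8 measured genes above 0 and 4 below, with a median log2 ratio of −0.15. Of the 8, 0 were 2-fold higher and 2 were 2-fold lower. Beside Atp2a3 this was Slc8a1, the sodium-calcium exchanger gene, 2.80-fold lower (2.15 to 3.67) with 218 and 78 reads, whose log2 ratio of −1.13 was −0.59 with a pseudocount of 5 CPM and −0.47 with the trend on abundance and length removed. In the other direction Mrln, a pump regulator gene, was 1.99-fold higher (1.74 to 2.28), with 317 and 631 reads and a log2 ratio of 0.91. Strit1, a pump activator gene, had no row. Genes of triad and T-tubule structure had 1 of 14 measured genes 2-fold lower, 0 higher, 11 below 0 and a median of −0.21. Dysf, the gene of the membrane repair protein dysferlin, was 5.32-fold lower (4.47 to 6.37), with 809 and 152 reads. Its log2 ratio of −2.15 was −4.41 by its highest row alone and −1.52 with a pseudocount of 5 CPM. By the mean of both libraries, the most abundant genes of that list were Bin1, which shapes T-tubules, with a log2 ratio of 0.41, and the dynamin gene Dnm2 with −0.14.

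Store-operated entry and IP3 receptor genes, through which non-excitable cells handle calcium, had 0 of 9 past 2-fold, 7 below 0 and a median of −0.32. Saraf, an inhibitor of store-operated entry, was the most abundant (log2 ratio 0.51, or 0.14 with the trend removed), followed by the IP3 receptor gene Itpr2, 1.53-fold lower (1.47 to 1.59). The highest row of Itpr2 alone gave −1.28. Calcium buffers, calcineurin and CaM kinase genes had 0 of 15 past 2-fold, 7 below 0 and a median of 0.16. The sign of this median turned with the highest row (−0.25), genes with 1 row (−0.33) and library totals (−0.08). The reticulum buffer calreticulin, Calr, had 27120 and 42446 reads and a log2 ratio of 0.65, or 0.14 with the trend removed. Nfatc1, a transcription factor that calcineurin activates, had one of 0.50, or 0.22 by its highest row alone.

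**Figure D4:**
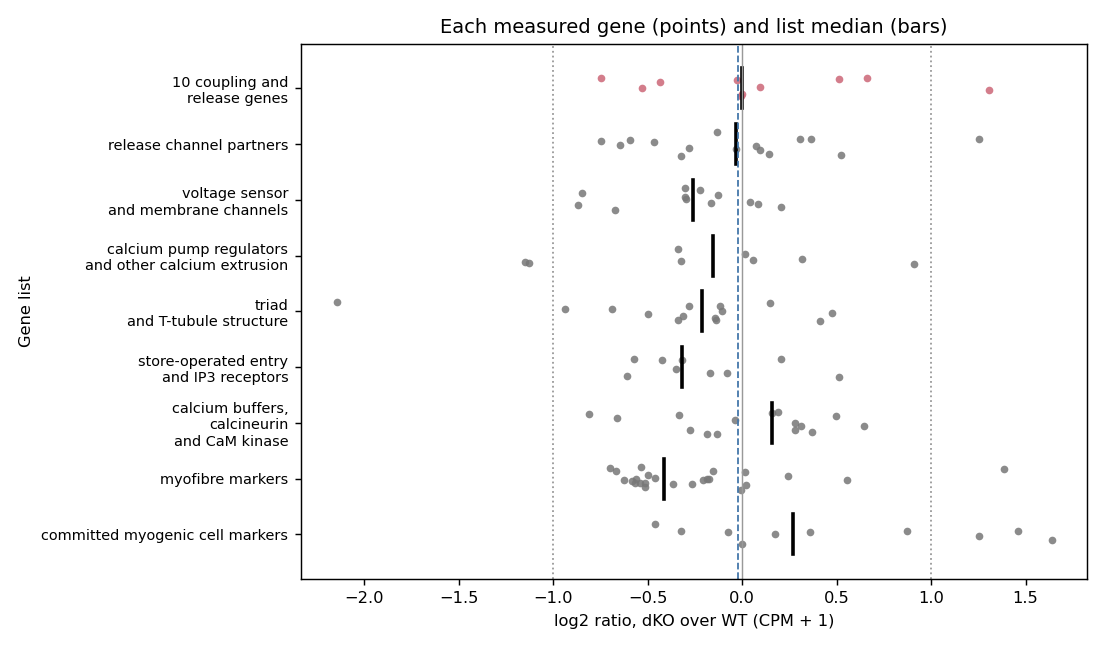
Log2 ratio of dKO over WT for each measured gene (points, spread vertically for legibility) of the 10 members, the 6 role lists and the myofibre and committed myogenic markers, with list medians as black bars. The dashed line is the median of all measured genes (−0.02) and dotted lines mark 2-fold, past which Ryr1 (1.31) is the only member.

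Marker genes of mature fibres had reads in both libraries, and their summed level was lower in dKO. The 24 myofibre markers summed to 1354 CPM in WT and 1099.7 CPM in dKO, with 19 of 24 below 0 and a median log2 ratio of −0.41. With Tnni1 (15 reads in WT, 0 in dKO) set at its bound, that median was −0.43. No other fibre marker was at 0. Of the 24, 1 was past 2-fold on the log2 scale, beside 6.22% of all measured genes in both directions together. It was Tnnt1, the slow fibre troponin T gene, with 427 and 1179 reads and a log2 ratio of 1.38, or 0.91 by its highest row. Tnnc1, the slow troponin C gene, had 7 and 29 reads, a ratio of 4.14 (1.78 to 11.2) and a log2 ratio of 0.55. Other slow fibre genes of the list did not share this direction clearly. Myh7, the slow myosin gene, had 51 and 16 reads and was 3.19-fold lower (1.79 to 5.99). The ratios of Myl2 (1.03) and Myl3 (1.55) had intervals that included 1. The most abundant were Actn3, with 13823 and 13751 reads, and Acta1, with 9351 and 6533. Their log2 ratios were −0.01 and −0.52. Cacnb1 (−0.43) lay close to the marker median of −0.41, as did Jph2 (−0.53) by the sum of its rows, and Cacna1s (−0.75) lay lower. Atp2a1, Casq1 and Stac3 had log2 ratios between −0.03 and 0.0015, and Jph1 (0.10), Atp2a2 (0.51), Ryr3 (0.66) and Ryr1 (1.31) lay above 0. Whether the marker reads came from fibre remnants, and how much of the RNA of each member did, was not tested.

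Markers of committed myogenic cells summed to 172 CPM in WT and 468 CPM in dKO, with a median log2 ratio of 0.27. Of the 10, 3 were at least 2-fold higher and 0 lower, beside 1.92% and 4.3% of all measured genes. Those higher were Myod1, Actc1 and Myl4, and most of the sum was Myod1 (5396 and 16886 reads). Myog, which marks the onset of differentiation, had 749 and 709 reads and a log2 ratio of −0.08, and Myh8, a perinatal myosin gene, had 10 and 0. Mural and smooth muscle markers, from cells that share Atp2a2 and Jph2 with striated muscle, summed to 1830.0 and 1315 CPM. Of these, 4 of 11 were 2-fold lower, beside 4.3% of all measured genes, and none was at 0. The part of these other cells in the Jph2, Casq2 and Ryr2 values was not tested. Summed levels of the other marker lists were 9588 and 11463 CPM for stem cells, 1747 and 872 for fibro-adipogenic progenitors, 4323 and 2052 for tendon and 235 and 193 for glia. The stem cell sum is led by Sdc4 (2980 and 4872 CPM), while 7 of the 12 stem cell markers were below 0, with a median log2 ratio of −0.05, and Pax7, the defining factor of satellite cells, was 1.77-fold lower (1.73 to 1.81). The glial sum was lower in dKO, although 3 of 5 glial genes were above 0, with a median of 0.25.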

How the data were processed

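RNA-seq of 1 WT and 1 dKO library was used. The authors deposited raw read counts per transcript, each row carrying its Entrez ID and length in bases, per the file headers. The submitters' processing notes name TopHat2 2.0.9, bedtools, edgeR and mm10 without roles. No source used here gives the counting rule, annotation, strand or read type. Of 24532 gene IDs, 24462 matched a symbol in RefSeq on GRCm38.p6, and IDs without one held 0.314% of WT and 0.401% of dKO reads. Rows were summed per gene and scaled by TMM in edgeR 4.0.16 (R 4.3.3), with factors of 1.09 for WT and 0.916 for dKO, so 1 read is 0.0250 CPM in both. Fold intervals are conditional Clopper-Pearson intervals (SciPy 1.17.1). Amplified reads are not independent molecules. The members and lists were chosen with earlier results of these data known. Named were all members and, per role list, up to 4 genes 2-fold apart with at least 50 reads, or else also the 2 most abundant; per marker list, the 2 most abundant and those at 0. Some genes that this rule names are not reported here. Ryr2, Jph3, Casq2, Strit1, Mrln, Rpl19, Tnnt1, Tnnc1, Myh7, Myl2, Myl3, Actc1, Myl4, Ly6a, Ptprc and Pax7 were named after their values were seen. Of the marker lists, single genes are named where a result turns on them. Alternatives were DESeq2 1.42.0 size factors, library totals, other pseudocounts, count floors and fold lines, and the highest row. Genes with 1 row and the trend removal were added after seeing the data. Scaling, ratios and intervals were run on simulated Poisson counts per gene. Those counts held no transcript rows, no amplification and no trend on abundance or length, so the run does not bear on these.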

Additional observations from a re-analysis of the deposited data

How the results depend on the processing

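With 1 library a group, no replicate could be left out. No paired analysis was possible because each group has 1 library. Library totals in place of TMM moved the median over all measured genes by −0.22, to a log2 ratio of −0.24, and that of the role genes to −0.38. The sign of Jph1 then turned (−0.15), as did that of Atp2a1 (−0.25). Jph2 changed sign only with the highest row (0.73). Stac3 (0.07), Casq1 (0.08) and Atp2a1 (−0.20) changed sign with the trend removed, and Atp2a1 also with the highest row (−0.01). With library totals the intervals of Stac3, Jph1, Casq1 and Atp2a1 lay below 1. Of the role lists, the median of release channel partners also turned with at least 100 reads (0.08), and that of pump regulators with genes of 1 row (0.32). No other member changed sign, and Ryr1 was past 2-fold in each alternative with a 2-fold line. At a 1.5-fold line 2 members were higher (Ryr1 and Ryr3) and 1 lower (Cacna1s), and at 4-fold 0 were higher and 0 lower. Role genes past the line, higher and lower, were 1 and 3 as reported, 3 and 7 with the highest row, 1 and 7 with library totals, 1 and 8 with a pseudocount of 0.1, 3 and 14 at 1.5-fold, 0 and 1 at 4-fold, and 0 and 0 among genes with 1 row. For all measured genes these counts were 286 and 640 as reported (69.1% lower), 455 and 897 with the highest row, 130 and 1040 with library totals (88.9% lower), 698 and 1653 with a pseudocount of 0.1, 154 and 187 with 5 (54.8% lower), 1336 and 1955 at 1.5-fold, 25 and 56 at 4-fold, 187 and 384 among genes with 1 row, and 306 and 415 with the trend removed (57.6% lower). The median of all genes was −0.014 with a pseudocount of 5, 0.0026 with at least 100 reads and 0.0077 with the trend removed. Per-length levels of Cacnb1 were 4.67 and 3.38 CPM per kb when its sum was divided by the length of its largest row. The cause of these shifts was not tested beyond the number of genes or the line itself. Depth limits Cacna1s most, with 136 reads in dKO.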
